A study of Gallus gallus with 6 samples.

Results

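The lipogenic enzymes of the liver build fatty acids from acetyl-CoA and pass them on to triacylglycerol. They were taken by symbol from the deposited liver expression table, and 7 of the 9 genes sought had a row: ACACA, FASN, ME1, ELOVL6, SCD, GPAM and DGAT2, of 14481 genes in all. ACLY and SREBF1 had no row by symbol or synonym and were not analysed here. Liver RNA of 6 chickens (Gallus gallus) had been sequenced. 3 birds carried the label ALV-J-resistant and 3 the label ALV-J-susceptible, after avian leukosis virus subgroup J, a chicken retrovirus. The labels give no treatment, genotype, strain, age, sex or infection status for either group, and the only tissue named is liver. Levels are FPKM, a rate of fragments per kilobase of transcript corrected for library depth, so that levels of different genes can be set side by side per length.

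In birds the liver, and not fat tissue, makes most fatty acid. ATP citrate lyase (ACLY) yields cytosolic acetyl-CoA, acetyl-CoA carboxylase (ACACA) turns it into malonyl-CoA, and fatty acid synthase (FASN) joins malonyl-CoA units to palmitate with NADPH that malic enzyme (ME1) helps to supply. ELOVL6 lengthens palmitate, SCD puts in a double bond to give oleate, GPAM puts the first acyl chain on glycerol-3-phosphate, and DGAT2 adds the last one to make triacylglycerol. SREBF1 encodes a transcription factor of these genes. Oestrogen raises both fatty acid synthesis and yolk precursor synthesis in the liver of the laying hen, and VTG2, a vitellogenin, is one of the yolk precursors.

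The libraries held between 3831119 and 6623026 fragments on the table's protein-coding genes, with between 6671 and 9424 genes above 0. Fragments on chromosome W, which hens carry and cocks lack, were found in 4 birds, resistant 1 and 2 and susceptible 1 and 2. In that order 5, 4, 3 and 2 of the 9 chromosome W genes were above 0, and their sums were low, 20.7, 12.9, 17.7 and 5.08 FPKM. Resistant 3, which had the fewest fragments of all birds, and susceptible 3 were at 0 for all 9 chromosome W genes. VTG2 stood at 12622, 18820, 3345 and 11688 FPKM in the 4 birds named first and at 9.65 and 20.6 in resistant 3 and susceptible 3. Sex, as read from chromosome W, and VTG2 level therefore cannot be told apart in these birds, and each group held both kinds. VTG1, another vitellogenin, divided the birds otherwise, as described below. As to the tissue label, the hepatocyte gene TF (transferrin) lay between 3122 and 4404 FPKM in every bird, while the row of ALB (albumin) read 0 for susceptible 3 and for resistant 2, and a listed 0 is not read as absence. Of 8 adipocyte markers 6 had a row. The defining marker FABP4 was at 0 in all birds, ADIPOQ was at 0 in all but susceptible 1, where it had 5.08, and PLIN1 was at most 5.51. The summed adipocyte list was 167 to 197 FPKM in resistant and 163 to 229 in susceptible birds, nearly all of it from CFD and CIDEA.

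The pathway was among the abundant messages of these livers, and its members differed widely in level. SCD (ENSGALG00000005739, chromosome 6 from 17049074 to 17064687, minus strand, galGal4) had a mean of 1274 FPKM over the 6 birds and ranked 39 among all genes of the table. ELOVL6 had a mean of 893 (rank 70), FASN 742 (rank 81), GPAM 368 (rank 165), ACACA 141 (rank 404) and ME1 89.7 (rank 613). DGAT2, placed last in the pathway, had a mean of 1.52 and ranked 8425. DGAT1, listed among the later steps below, had no row, so the last step is not read from DGAT2 alone. Together the members held between 0.37% and 1.55% of all FPKM of a bird, and SCD alone supplied 26.5% to 39.9% of that sum.

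**Figure D1:**
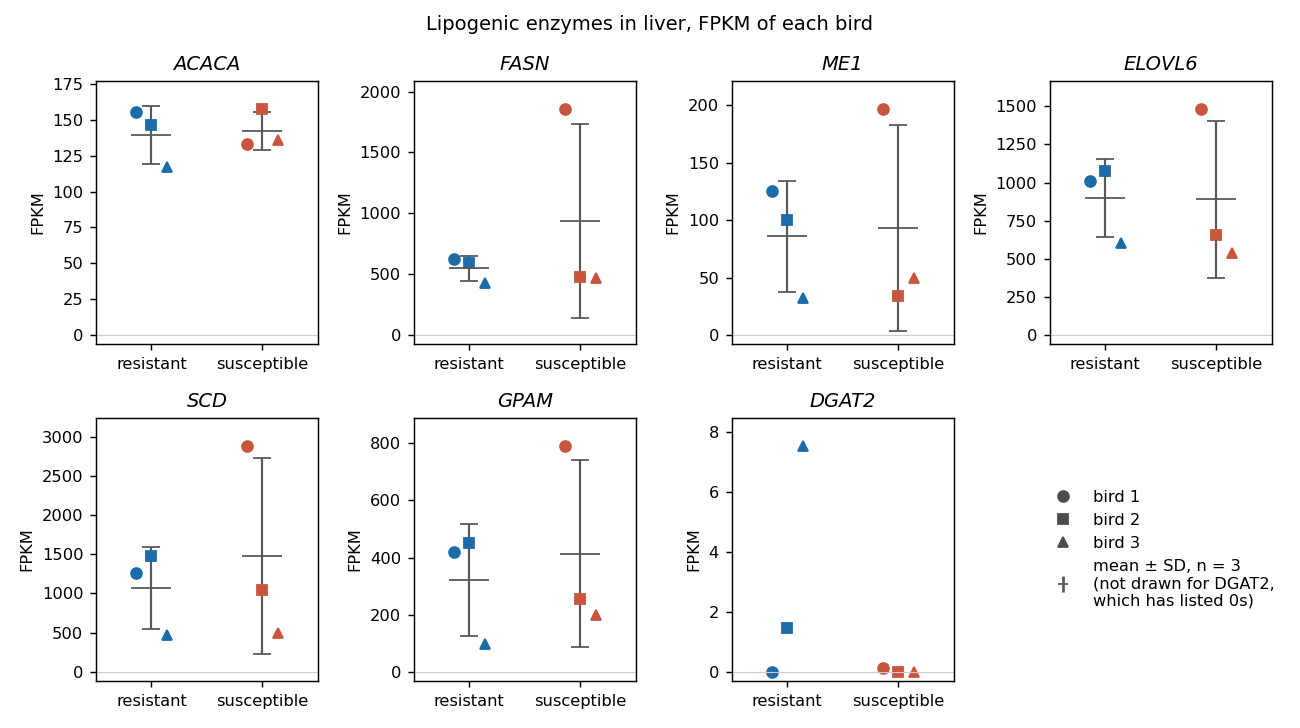
FPKM of each lipogenic enzyme (y axis, linear) in the 3 resistant and 3 susceptible birds (x axis), with symbols for bird numbers, and group means with SD except for DGAT2. Susceptible 1 is the highest bird for FASN, ME1, ELOVL6, SCD and GPAM, the groups overlap for every gene, and ACACA stays between 117 and 157.

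The earliest step of the pathway that had a row was the steadiest. ACACA (ENSGALG00000005439, chromosome 19 from 8446046 to 8541999, minus strand) measured 155, 147 and 117 FPKM across resistant 1 to 3, against 133, 157 and 136 across susceptible 1 to 3. Its highest bird was 1.35 times its lowest, the smallest range of the 7 members, and the groups overlapped.

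FASN (ENSGALG00000002747, chromosome 18 from 4886002 to 4935063, plus strand) measured 624, 595 and 431 FPKM across resistant 1 to 3, against 1855, 481 and 468 across susceptible 1 to 3. Susceptible 1 stood 2.97 times above the next bird, and the other 5 birds lay within 431 to 624. The level in susceptible 1 rested on 112476 fragments, and that of the lowest bird on 18501. The FPKM of FASN was 3.06 to 4.06 times that of ACACA in 5 birds and 13.96 times in susceptible 1. ACACA was thus the second lowest, at 133, in the bird where FASN was highest.

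ME1 (ENSGALG00000015849, chromosome 3 from 77166449 to 77331527, plus strand), a source of NADPH, measured 126, 100.2 and 32.0 FPKM across resistant 1 to 3, against 197, 33.8 and 50.04 across susceptible 1 to 3. Susceptible 1 was again the highest, at 1.56 times the next bird. Susceptible 2 was the second lowest bird for ME1 although its VTG2 was high.

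ELOVL6 (ENSGALG00000012131, chromosome 4 from 57576632 to 57597173, plus strand) measured 1010.4, 1075 and 603 FPKM across resistant 1 to 3, against 1479.7, 654 and 538 across susceptible 1 to 3. The groups overlapped and bird 3 of the susceptible group was the lowest. SCD measured 1259, 1478 and 476 across resistant 1 to 3, against 2882, 1049.6 and 500.2 across susceptible 1 to 3. For SCD the birds 3 of both groups were alike and lowest, and susceptible 1 was 1.95 times the next bird.

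GPAM (ENSGALG00000008795, chromosome 6 from 26158125 to 26183815, minus strand) measured 421, 450.5 and 96.8 FPKM across resistant 1 to 3, against 790.1, 254 and 197 across susceptible 1 to 3. It had the widest range of the members above 0 in every bird, 8.16 times from resistant 3 to susceptible 1. DGAT2 (ENSGALG00000009114, chromosome 1 from 193951674 to 193966948, minus strand) was listed at 0, 1.47 and 7.54 across resistant 1 to 3, against 0.133, 0 and 0 across susceptible 1 to 3. Its largest value, in resistant 3, rested on 40 fragments, that of resistant 2 on 15 and that of susceptible 1 on 1. The groups overlapped, since resistant 1 was listed at 0. None of the 7 members lies on chromosome Z or W, and SCD and GPAM share chromosome 6.

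Whether resistant and susceptible livers differ in gene expression is the question of the study. No lipogenic enzyme passed the test: of 9626 genes averaging 0.5 FPKM or more, limma on log2(FPKM + 1) called 0 at an adjusted p under 0.05, which is 0.0%, and 0 of the 7 members. limma gave 0 members an unadjusted p under 0.05, and 3.87% of all genes tested. For 0 of the 7 members did the groups lie apart without overlap, against 8.41% of all genes tested, 4.44% higher and 3.98% lower in resistant birds. Of the members, 3 averaged higher and 4 lower in resistant birds on the log scale. Their median log2 fold change was -0.032, and that over all genes tested was 0.055. That of FASN was -0.46 (SE 0.55, 95% interval -1.68 to 0.76), its resistant mean being 549.8 ± 104 FPKM and its susceptible mean 935 ± 797 (SD, n = 3). That of SCD was -0.26 (SE 0.67, interval -1.76 to 1.24), of GPAM -0.37 (SE 0.69, interval -1.90 to 1.17) and of ME1 0.090 (SE 0.71, interval -1.50 to 1.68). ELOVL6 had 0.11 (SE 0.48, interval -0.96 to 1.17) and DGAT2 1.41 (SE 0.88, interval -0.57 to 3.38). The value of DGAT2 moved with the settings, from 0.85 with quantile normalization to 3.00 with a pseudocount of 0.1. The narrowest interval was that of ACACA, -0.78 to 0.72 around a log2 fold change of -0.032 (SE 0.34). The adjusted p from limma was between 0.984 and 0.999 for the 7 members. These intervals leave room for differences of more than 2-fold in either direction for SCD, GPAM and ME1. They do so in 1 direction for FASN (lower in resistant birds) and for ELOVL6 and DGAT2 (higher). A difference of that size is thus not excluded by these birds for any member but ACACA, whose interval stays within 2-fold.

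**Figure D2:**
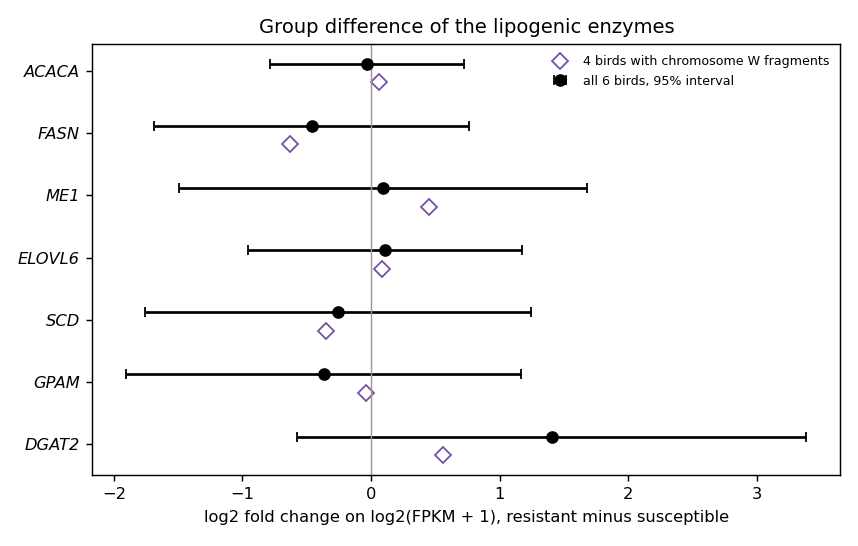
Log2 fold change of each lipogenic enzyme (x axis, resistant minus susceptible, on log2(FPKM + 1)), with its 95% interval over all 6 birds in black and the value among the 4 birds with chromosome W fragments as open diamonds. Every interval includes 0, and only DGAT2, with its few fragments, lies far from it.

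Among the 4 birds with chromosome W fragments the log2 fold changes were -0.63 for FASN, -0.35 for SCD, -0.042 for GPAM, 0.45 for ME1, 0.083 for ELOVL6, 0.56 for DGAT2 and 0.061 for ACACA. In the other 2 birds, 1 per group and so without a test, resistant 3 had 0.92 times the FPKM of susceptible 3 for FASN, 0.95 times for SCD, 0.49 times for GPAM, 0.64 times for ME1, 1.12 times for ELOVL6 and 0.86 times for ACACA. The values thus fell on both sides of equality in both kinds of bird. Leaving out susceptible 1 turned the log2 fold change of FASN to 0.19, of SCD to 0.41 and of GPAM to 0.24. Leaving out resistant 3 gave 0.25 for SCD, 0.35 for GPAM and 0.091 for ACACA. ME1 lay at -0.29, -0.13, -0.42 and -0.14 without resistant 1, resistant 2, susceptible 2 and susceptible 3. ELOVL6 lay at -0.044, -0.040 and -0.18 without resistant 2, susceptible 2 and susceptible 3, and ACACA at 0.044 without susceptible 2. DGAT2 was 0.59 without resistant 3 and 2.14 without resistant 1. The members' share of all FPKM was 0.83%, 1.09% and 0.37% across resistant 1 to 3, against 1.55%, 0.60% and 0.42% across susceptible 1 to 3. The total of resistant 2, whose ALB and APOB rows read 0, was the lowest, at 351666 FPKM against 434608 to 476928 in the others. The ALB row of susceptible 3 read 0 too. A total without these messages raises the share of such a bird. A 2-sided exact permutation comparison of the shares had p = 0.8, where 3 birds against 3 cannot go below 0.1. Without resistant 3 or susceptible 1 the difference of the shares turned from -0.092 to 0.10 or 0.26 percentage points.

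Set against the yolk precursor, the members separated into those that were low in both birds of low VTG2 and those that were not. The log2 levels of VTG2 fell into clusters of 4 and 2 birds, with a gap of 67.4% of their whole range, so no pooled correlation is given and the birds are described one by one. For 4 of the 7 members, FASN, SCD, ELOVL6 and GPAM, all 4 birds of high VTG2 lay above both birds of low VTG2. The same order was found for 6.6% of all genes tested, and the opposite order for 13.3%. Among the 537 genes averaging 100 FPKM or more and with no 0, these shares were 11.9% and 21.2%, and 4 of the 5 members of that kind had the first order. This is a description with no test, and the members were chosen with earlier results of these birds known.

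The distance between the clusters was small except for SCD. The lowest of the 4 birds had 2.10 times the SCD level of the higher of the 2 birds, 1049.6 against 500.2 FPKM. For GPAM this ratio was 1.29, for ELOVL6 1.08 and for FASN 1.03, with 481 against 468. Mitochondrial genes held 4.97%, 5.24% and 9.67% of all FPKM across resistant 1 to 3, against 9.84%, 9.93% and 16.9% across susceptible 1 to 3. As a share of FPKM without mitochondrial genes, FASN would by these values stand higher in susceptible 3 than in susceptible 2. The narrow order of FASN thus depends on keeping mitochondrial genes in the total. No fit was rerun without them. ME1 and ACACA overlapped, since susceptible 2 had less ME1 than susceptible 3 and susceptible 1 less ACACA than susceptible 3. SCD also stood out relative to the synthase: its FPKM was 1.10 and 1.07 times that of FASN in the 2 birds of low VTG2, resistant 3 and susceptible 3, and 2.02, 2.48, 1.55 and 2.18 times in resistant 1 and 2 and susceptible 1 and 2.

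**Figure D3:**
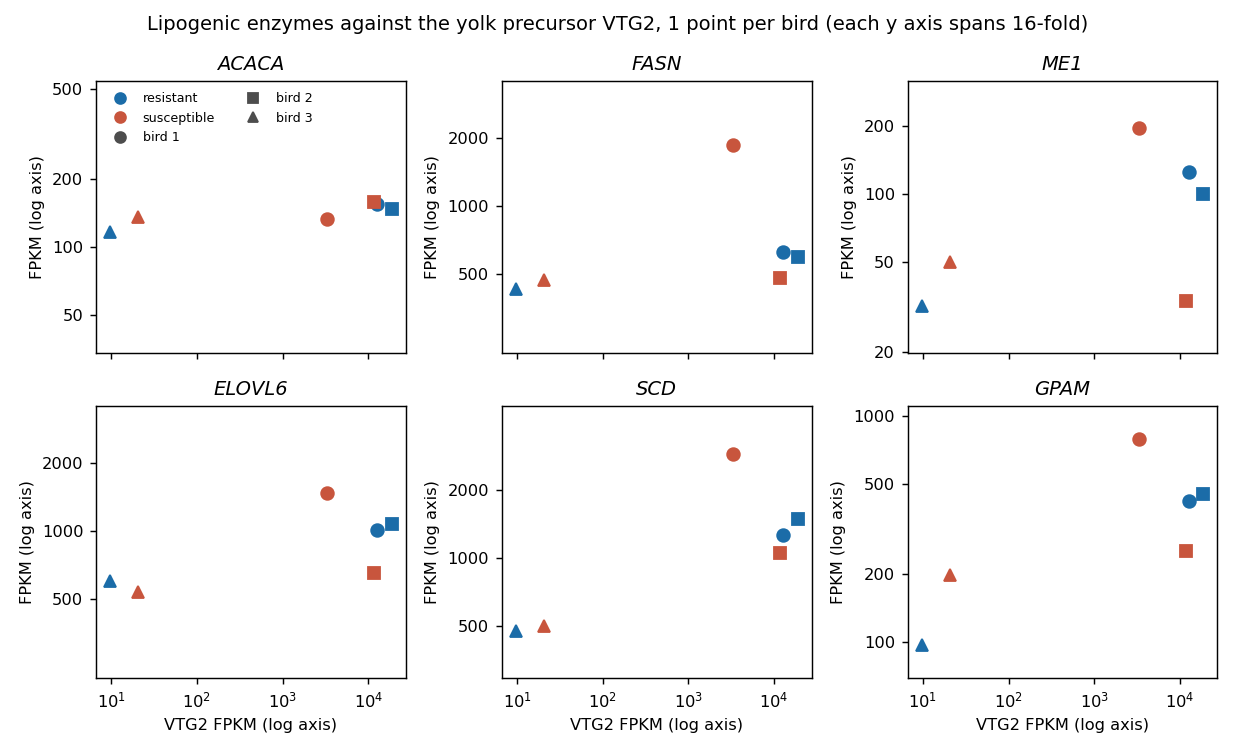
FPKM of 6 lipogenic enzymes (y axis, log) against VTG2 FPKM (x axis, log), 1 point per bird, coloured by group. The 2 birds with VTG2 of 9.65 and 20.6 have the lowest SCD and GPAM, ACACA is level across birds, and susceptible 1, with VTG2 of 3345, is above the 3 birds with more VTG2 for all but ACACA.

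Within the 4 birds of high VTG2, susceptible 1 departed from the order of the yolk precursor. Across resistant 2, resistant 1 and susceptible 2, in falling order of VTG2, SCD, ELOVL6 and GPAM fell too, while FASN, ME1 and ACACA did not follow that order. Susceptible 1 had the least VTG2 of the 4, 3345 FPKM, and the highest FASN, SCD, ELOVL6, GPAM and ME1 of all 6 birds. Susceptible 1 was the highest bird for 19.7% of all genes tested, for 23.6% of those averaging 100 FPKM or more with no 0, and for 5 of the 7 members. Its VTG1, the other vitellogenin measured, was 33.3 FPKM, against 6403, 11100.4 and 5040 in resistant 1, resistant 2 and susceptible 2. When the birds were divided by VTG1 in place of VTG2, susceptible 1 joined the low birds. The order then held for 1 of the 7 members instead of 4. That member was ACACA, and FASN, SCD, ELOVL6 and GPAM no longer had the order. Macrophage markers differed between the same birds: the summed macrophage list (5 genes, CSF1R, MARCO, CTSS, C1QA and C1QB) was 401 and 403 FPKM in the 2 birds of low VTG2 and 99.95 to 272 in the other 4. Of the 5 genes CSF1R, MARCO and CTSS were lower in all 4 birds of high VTG2, against 13.3% of all genes tested, and C1QA and C1QB overlapped. By group it was 254 to 403 in resistant and 99.95 to 401 in susceptible birds. Some hepatocyte markers differed between these birds too: of 11 tested, FGA, FGB, FGG (the fibrinogen chains) and SERPINC1 were lower in all 4 birds of high VTG2, AHSG was higher and 6 overlapped. Among all genes tested 13.3% were lower and 6.6% higher in this order. Among genes averaging 100 FPKM or more with no 0 these shares were 21.2% and 11.9%. FGA had 4614 and 4528 FPKM in resistant 3 and susceptible 3 and 1344 to 1620 in the other 4. The summed hepatocyte list was 17316 to 64889 in resistant and 36859 to 60928 in susceptible birds. The lowest sums were those of resistant 2 and susceptible 3, whose ALB row read 0. ALB had 24858 to 30679 FPKM in the other birds, so the range of the sum is not read as a range of hepatocyte content. The part of either list in the enzyme levels was not tested. In these bulk livers, fewer cells of a type and less RNA per cell cannot be told apart.

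Pairs of members were compared across the birds. Of 15 pairs among the 6 members above 0 in all birds, the 5 pairs with FASN are left out, because susceptible 1 stands apart from the other birds by over 50% of the FASN range. In all 10 remaining pairs Pearson's r of log2(FPKM + 1) over 6 birds was positive, from 0.20 to 0.95, against 59.5% of pairs among abundant genes. Of the pairs left out, FASN with ACACA had a negative r, -0.046. FASN with SCD, GPAM, ELOVL6 and ME1 had r from 0.81 to 0.86. The pairs with FASN are not counted below. For 5 pairs the exact permutation p, 2-sided and adjusted over 15 pairs, was under 0.05 for r. These were SCD with GPAM and with ELOVL6, GPAM with ELOVL6 and with ME1, and ELOVL6 with ME1. No pair with ACACA passed. Unadjusted p was under 0.05 for 6 of the 10 pairs, all with positive r, against 5.69% of the 71253 pairs among 378 genes averaging 100 FPKM or more with no 0 and chosen by the same limit on gaps. ME1, a part of several member pairs, averaged 89.7 FPKM and so lies below that limit of abundance. The 10 pairs also reuse the same few genes and are not independent. The permutations exchange all 6 birds freely, while SCD, GPAM and ELOVL6 each follow the division of the birds into 4 and 2 by VTG2. SCD and GPAM ranked the 6 birds identically, with r = 0.948, Spearman's rho = 1 and an exact permutation p of 0.00139 for r, the smallest that 720 pairings can give, and of 0.00278 for rho (adjusted p = 0.021 and 0.042). Without the 2 birds farthest from the median of SCD, r was 0.908. SCD and ELOVL6 had r = 0.944, rho = 0.943 and exact permutation p of 0.00278 and 0.0167 (adjusted 0.021 and 0.042), and r = 0.899 without the 2 farthest birds. For GPAM and ELOVL6 r was 0.902, rho 0.943 and the exact permutation p 0.0181 and 0.0167 (both adjusted to 0.042), with r = 0.9997 over the 4 remaining birds. For GPAM and ME1 r was 0.908 and rho 0.886, with exact permutation p of 0.0194 and 0.0333 (adjusted 0.042 and 0.056) and r = 0.840 without the 2 farthest birds. For ELOVL6 and ME1 r was 0.928 and rho 0.771, with exact permutation p of 0.0264 and 0.103 (adjusted 0.049 and 0.154) and r = 0.973 without the 2 farthest birds. ACACA had r between 0.20 and 0.49 with SCD, GPAM, ELOVL6 and ME1 and between -0.06 and 0.05 without the 2 farthest birds. Neither kind of bird, 4 with and 2 without chromosome W fragments, is enough for a correlation of its own. With rescaling by median ratios 3 pairs in place of 5 passed.

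Genes outside the pathway were ranked by likeness to the mean profile of the 6 members, which lay 0.32, 0.31 and -0.87 log2 units from its mean across resistant 1 to 3, and 1.10, -0.32 and -0.55 from it across susceptible 1 to 3. Among 4258 genes averaging 5 FPKM or more and with no 0, the 8 most alike over the 6 birds had Pearson's r between 0.947 and 0.986, and SCARB2, BCAR3, IFNGR2, ERLIN1, GM2A and CNOT6 were among them. With so many genes and 6 birds such values are given as a ranking only. SCARB2, a lysosomal membrane protein, measured 41.8, 44.8 and 27.7 FPKM across resistant 1 to 3, against 63.9, 33.7 and 33.5 across susceptible 1 to 3. ERLIN1, a membrane protein of the endoplasmic reticulum, had 7.82, 11.3 and 3.10 against 23.2, 6.57 and 5.90. IFNGR2, a chain of the interferon gamma receptor, had 64.0, 47.0 and 25.3 against 97.6, 38.2 and 26.6.

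Of 13 genes listed as feeding the pathway with citrate, acetyl-CoA and NADPH, 9 had a row and were tested. 0 passed limma over all genes and 0 had an unadjusted p under 0.05, against 3.87% of all genes tested. On the log scale 3 averaged higher and 6 lower in resistant birds (median log2 fold change -0.13). In the order by VTG2, 1 of the 9 was higher in all 4 birds of high VTG2 and 1 lower, against 6.6% and 13.3% of all genes tested. Susceptible 1 was the highest bird for 3 of the 9, against 19.7% of all genes tested. The former was SLC25A1, the mitochondrial citrate carrier, named with its values known. It measured 357, 286 and 167 FPKM across resistant 1 to 3, against 353, 469 and 168 across susceptible 1 to 3. The latter was TALDO1, transaldolase of the pentose phosphate pathway, at 38.2, 30.4 and 64.5 against 25.7, 18.02 and 44.5. ACSS2, which makes acetyl-CoA from acetate, was highest in susceptible 1, at 27.1 against 6.95 to 13.4 in the other birds. TKT, transketolase, had 27.1, 13.7 and 12.1 against 54.5, 10.7 and 43.6. IDH1, a source of NADPH and the most abundant of the list, had 330.4, 429 and 761 against 509, 403 and 398. Resistant 3, lowest in ME1, had the most IDH1, while susceptible 2, with nearly as little ME1 (33.8 against 32.0 FPKM), had 403.

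Among regulators, THRSP, a small liver protein known as Spot 14 that goes with fatty acid synthesis, differed widely by VTG2. Its abundant row (ENSGALG00000017267) measured 3602, 3024 and 791 FPKM across resistant 1 to 3, against 3382, 3465 and 535 across susceptible 1 to 3. The lowest of the 4 birds of high VTG2 was thus 3.82 times the higher of the other 2, a wider gap than that of any lipogenic enzyme. In contrast to the enzymes, susceptible 1 was level with the other 3. A second row of the same symbol (ENSGALG00000027901) had 6.27 to 68.8 and overlapped, and the sources used here do not say how reads shared by the copies were assigned. SCAP, the escort of the sterol response factors and likewise named with its values known, had 25.5, 18.7 and 2.34 against 21.997, 35.4 and 8.23. SREBF2, the sterol relative of SREBF1, had 38.7, 27.5 and 13.5 against 55.1, 44.9 and 67.2, a log2 fold change of -1.14 (SE 0.48, limma adjusted p = 0.984) and of -0.59 in the birds with chromosome W fragments. INSIG1, which holds SCAP back, had 740.2, 601 and 1081 against 2973, 661 and 1528, highest in susceptible 1 like the enzymes. INSIG2 had 91.3 to 213 in resistant and 172 to 206 in susceptible birds. Of 22 regulators 13 symbols had a row, giving 13 tested rows. 0 passed limma over all genes and 1, SREBF2, had an unadjusted p under 0.05, against 3.87% of all genes tested. 5 averaged higher and 8 lower in resistant birds (median log2 fold change -0.44). By VTG2, 2 of the 13 were higher in all 4 birds, THRSP and SCAP, and 1 was lower, against 6.6% and 13.3% of all genes tested.

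**Figure D4:**
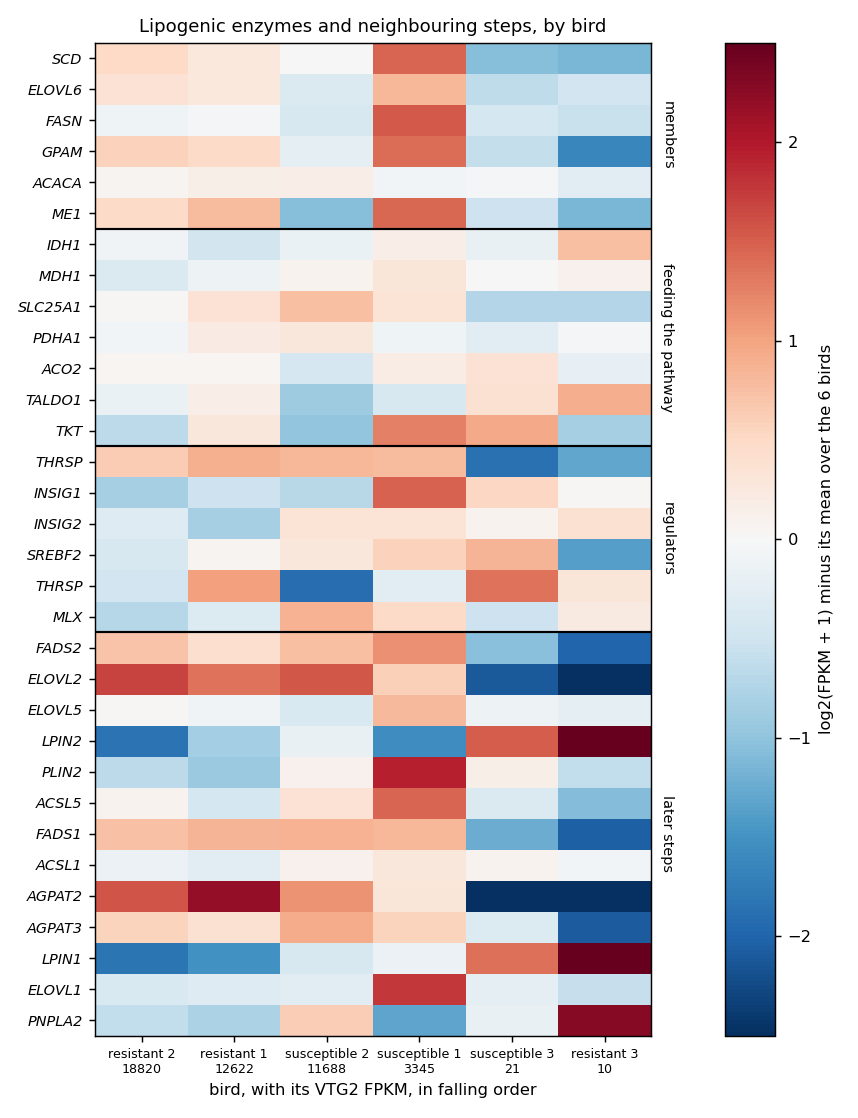
Lipogenic enzymes and genes that feed the pathway, regulate it or follow it (rows, those averaging 20 FPKM or more with no 0) in the 6 birds (columns, in falling order of VTG2), coloured by log2(FPKM + 1) minus its mean over birds, with colours capped at 2.5 on either side. The 2 birds of low VTG2 on the right are low for SCD, GPAM, the upper (abundant) THRSP row, FADS1, FADS2, ELOVL2 and AGPAT2 and high for LPIN1 and LPIN2, and susceptible 1 is high for FASN, SCD, PLIN2 and ELOVL1.

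The steps that follow, further elongation, desaturation and glycerolipid assembly, held genes with gaps between the VTG2 clusters wider than those of the lipogenic enzymes. Of 22 listed, 18 had a row and were tested. In 5 of the 18 all 4 birds of high VTG2 were higher, and in 3 they were lower, against 6.6% and 13.3% of all genes. Among genes averaging 100 FPKM or more with no 0 these shares were 11.9% and 21.2%. The count of lower genes was thus near the background. Apart from FADS2, the most abundant of the list, the genes of this paragraph are named with their values known. FADS2, the delta-6 desaturase, measured 780, 960.2 and 147 FPKM across resistant 1 to 3, against 1295, 977 and 280.4 across susceptible 1 to 3. FADS1, the delta-5 desaturase, had 344, 318 and 45.7 against 341, 351 and 80.1, so that the 4 birds of high VTG2 lay within 318 to 351. ELOVL2, an elongase of polyunsaturated chains, had 669.9, 845 and 30.5 against 395, 768 and 60.3, a gap of 6.54 times. AGPAT2, which adds the second acyl chain after GPAM, had 196, 127 and 5.82 against 51.4, 92.4 and 6.22, a gap of 8.25 times, and AGPAT3 had a gap of 1.68 times. The lipins, phosphatases that make diacylglycerol, went the other way. LPIN2 had 99.3, 48.9 and 1349 against 60.0, 157 and 515, and LPIN1 had 8.19, 6.47 and 148 against 22.7, 19.0 and 67.8. The third lower gene, MOGAT1, was listed at 0 in 3 birds.

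Between resistant and susceptible birds, 0 of these 18 genes passed limma over all genes. 1 had an unadjusted p under 0.05, against 3.87% of all genes tested, and 7 averaged higher and 11 lower in resistant birds (median log2 fold change -0.25). The 1 gene with an unadjusted p under 0.05 was PLIN2, a protein that coats lipid droplets. PLIN2 measured 139, 169.6 and 173 FPKM across resistant 1 to 3, against 1027, 287 and 293 across susceptible 1 to 3, without overlap, with a log2 fold change of -1.46 (SE 0.51, limma adjusted p = 0.984) and of -1.82 in the birds with chromosome W fragments. The groups lay apart for 4 of the 18 genes, against 8.41% of all genes tested: PLIN2, ACSL1 and ELOVL1, lower in every resistant bird, and GPAT4, higher. ACSL1 and ELOVL1 are named with their values known. ACSL1, which activates fatty acids, had 89.4, 98.5 and 103 against 133, 118 and 116, and ELOVL1, an elongase, had 23.2, 22.4 and 19.5 against 102, 24.5 and 25.0. Susceptible 1, the bird highest in FASN and SCD, was also highest in PLIN2. ACSL5, a relative of ACSL1, had 205, 299 and 131 against 768, 359 and 219, with a log2 fold change of -0.96 (SE 0.51), and overlapped. GPAT4, a relative of GPAM in the endoplasmic reticulum, had 5.26, 8.15 and 10.4 against 3.63, 0 and 2.11, without overlap. GPAT4 averaged only 4.92 FPKM, and the listed 0 of susceptible 2 is not read as absence.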

How the data were processed

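The deposited table holds, for 6 livers, FPKM values made by the authors and a scaled signal under a header naming counts. Per the submitters' processing notes, the tools were Cufflinks, Cuffdiff, HISAT2 2.0.4 and cutadapt 1.9.3 and the build was galGal4, with no role given for each. The deposited signal is not whole. In each bird at least 99.8% of its low values were multiples of a common step to within 0.02 of it, and a value divided by the step is called fragments. No count test was run. The sources used here do not say whether counting used strand. Starts are raised by 1 to count from 1. Birds were grouped by title, and columns were matched to birds by the sample descriptions. There were 0 columns of other samples.

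log2(FPKM + 1) was fitted with limma 3.58.1 (trend) in R 4.3.3 over 9626 genes averaging 0.5 FPKM or more, with Benjamini-Hochberg adjustment at 0.05. Fold changes on this scale understate those of low genes. Each bird is a separate library per the labels, so p-values measure the spread between birds. In 20 rounds simulated with the spread of these birds (9626 genes, 200 changed, all averaging 10 FPKM or more), limma recovered 0.5%, 11.5%, 36.8% and 59.6% of 2-, 4-, 8- and 16-fold changes, with a mean of 1.75 false calls. Single values were compared by exact permutation with SciPy 1.17.1, and figures were drawn with matplotlib 3.10.9. Members and lists were chosen with earlier results of these data known. Named genes are the members, the 3 genes of smallest p and the most abundant gene of each list, and the 8 genes most like the members, and the text says where others are named. Some genes that this rule names are not reported here. Lists are described by counts and medians. Same-numbered birds deviated from their group means with r of 0.01, 0.04 and 0.17, so the numbers were not taken to pair birds.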

Additional observations from a re-analysis of the deposited data

How the results depend on the processing

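limma called 0 genes under each of 17 alternatives: another pseudocount (0.1), a filter of 5 FPKM, no filter, median ratio scaling, quantile normalization, scaled counts, 0s as missing, a replicate block, VTG2 as a covariate, the birds with chromosome W fragments, no trend, and leaving out each bird. With the replicate block the lowest adjusted p was 0.363 over all genes and 0 genes were called. The numbers were not taken to pair the birds, since not every same-numbered pair had a correlation of deviations over 0.1. With so few birds these correlations cannot exclude a pairing. Under the block the log2 fold change of FASN was -0.46, as without it. With 1 bird of each group per number, the block cannot change the fold change of any gene.

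The log2 fold change of ACACA was 0.062 with median ratio scaling, 0.10 with quantile normalization and 0.061 among birds that carry W fragments, against -0.032. Median ratio scaling moved the median of all genes from 0.055 to 0.13, and 0s as missing moved it to -0.19. DGAT2 lay at 3.00 with the other pseudocount, 2.81 on scaled counts, 2.02 with 0s as missing, 0.85 with quantile normalization and 0.56 among birds that carry W fragments, against 1.41, and did not pass. Leaving out each bird gave ranges of -0.80 to 0.19 for FASN, -0.11 to 0.091 for ACACA, -0.86 to 0.41 for SCD, -0.42 to 0.83 for ME1, -0.18 to 0.55 for ELOVL6, -0.76 to 0.35 for GPAM, 0.59 to 2.14 for DGAT2 and -0.32 to 0.41 for the median of the members. The difference in the share of FPKM ranged from -0.31 to 0.26 percentage points, both signs included, and was -0.027 without VTG1, VTG2 and APOV1 in the total (chosen after the data were seen). The count of members above in the order by VTG2 was 4 with a pseudocount of 0.1, median ratio scaling, scaled counts and the filter of 5 FPKM. It was also 4 with 0s as missing and with APOV1 as the yolk measure. It was 1 with VTG1, where ACACA alone had the order, and 4 to 6 without each bird. Most of these settings could not lower the count. A pseudocount keeps the ranks of the birds, and the filter and 0s as missing touch DGAT2 alone. APOV1 divides the birds as VTG2 does, and leaving out a bird cannot break an order. Of the settings listed, only median ratio scaling, scaled counts and VTG1 could have lowered it. Of the member pairs, 3 in place of 5 passed with median ratio scaling and 5 with scaled counts, both chosen after the data were seen. The cause was not tested.

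The count tests planned on recovered fragments were not run, because the deposited values are not whole. Alternatives of a fit on VTG2, among them group as a covariate, were not run, because the birds fall into clusters of VTG2. Depth limits DGAT2, with at most 40 fragments in a bird.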

Other observations

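Of 11 genes listed for fatty acid oxidation, which runs against synthesis, 8 had a row and were tested. 0 passed limma over all genes and 0 had an unadjusted p under 0.05, against 3.87% of all genes tested. Of the 8, 5 averaged higher and 3 lower in resistant birds (median log2 fold change 0.099). CPT1A, which lets acyl chains into mitochondria and is held back by the product of ACACA, had 37.0, 52.4 and 32.0 FPKM in the resistant and 20.4, 26.6 and 34.5 in the susceptible birds. EHHADH, a peroxisomal enzyme, had 58.5, 47.2 and 86.6 against 95.4, 86.9 and 83.4. In the order by VTG2, 1 of the 8 was higher in all 4 birds of high VTG2 and 0 lower, and 7 overlapped. The shares among all genes tested were 6.6% and 13.3%.

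Among yolk and lipoprotein genes, 8 of 10 had a row, and 0 passed limma over all genes. APOV1, a yolk lipoprotein subunit, had 24188, 17081 and 12.8 FPKM in the resistant and 2587, 14416 and 51.8 in the susceptible birds, placing the birds as VTG2 does. ESR1, the oestrogen receptor, was listed at 0 in resistant 3 and had 17.3 in susceptible 3, against 18.2 to 27.4 in the other birds. APOB had 5125, 0 and 615 against 2441, 5359 and 816, and APOA1 had 2561, 1496 and 4562 against 5379, 2361 and 5813. VTG1, VTG2 and APOV1 together held 9.94%, 13.4% and 0.0054% of all FPKM in the resistant and 1.26%, 7.05% and 0.018% in the susceptible birds.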
